A study of Mus musculus with 60 samples.

Results

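The dorsal hippocampus of mice that had swum was compared with the dorsal hippocampus of mice left in their home cage, across all 13645 genes of the deposited table for that pair, with 1 entry per Ensembl gene ID. The series as a whole holds 13986 genes over its 10 tables. Swim and Homecage stand for 10 of its 60 libraries, 5 in either group, and every library is poly(A)-enriched RNA from a wild type C57BL/6 mouse at postnatal day 105. Swim, Handling and Restraint mice were taken 45 minutes after the treatment, Homecage mice had none, and whole, dorsal and ventral hippocampus were each sampled under these 4 conditions. The labels give neither the sex of the mice nor the length or water temperature of the swim, and they leave unstated whether 1 mouse gave both a dorsal and a ventral library. Only the mean of each group was used here, not the values of single libraries. Replicate error enters only through the authors' p, and it cannot be said which libraries were high or low. The series record counts 5 mice per condition, but the test behind that p is not given. How that p weighs the spread between these mice is therefore not known.

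The dorsal hippocampus is tied mainly to spatial memory and navigation, and its neurons carry both receptors for the stress hormone corticosterone, the mineralocorticoid and the glucocorticoid receptor. Forced swimming is a strong stressor that raises corticosterone. Immediate early genes are switched on by firing through factors already present in the cell, such as CREB and serum response factor, without new protein. Hormone-responsive genes are switched on when a steroid receptor enters the nucleus and binds a glucocorticoid response element, a short DNA palindrome.

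Swim changed few genes in dorsal hippocampus at an adjusted p of 0.05, and most of those rose. The authors' deposited table calls 61 of 13645 genes (0.447%), 49 of them higher after Swim (0.359%) and 12 lower (0.0879%), while 667 genes were higher and 857 lower at an unadjusted p under 0.05. The median log2 fold change of all genes was 0.01, the median size of the calls was 0.57, and 8 calls reached 1 log2 unit: Fos, Egr2, Maff, Apold1 and Gm10273 among the rises and Hes5, Rn18s-rs5 and Gm8186 among the falls. The group means sum to 23.4M estimated counts (M, mega) in Homecage and 24.2M in Swim, and levels are given below as each gene's group mean in counts per 1M of that sum (CPM). Such levels are not divided by length and are compared between groups, not between genes. The standard error (SE) beside a log2 fold change is the one implied by the deposited p, and its median fell from 0.25 for genes with a mean count under 50 to 0.06 for those of 5000 or more. The smallest called change was 0.22, in Selenop. In bulk tissue, fewer cells of a type and less RNA per cell cannot be told apart.

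**Figure D1:**
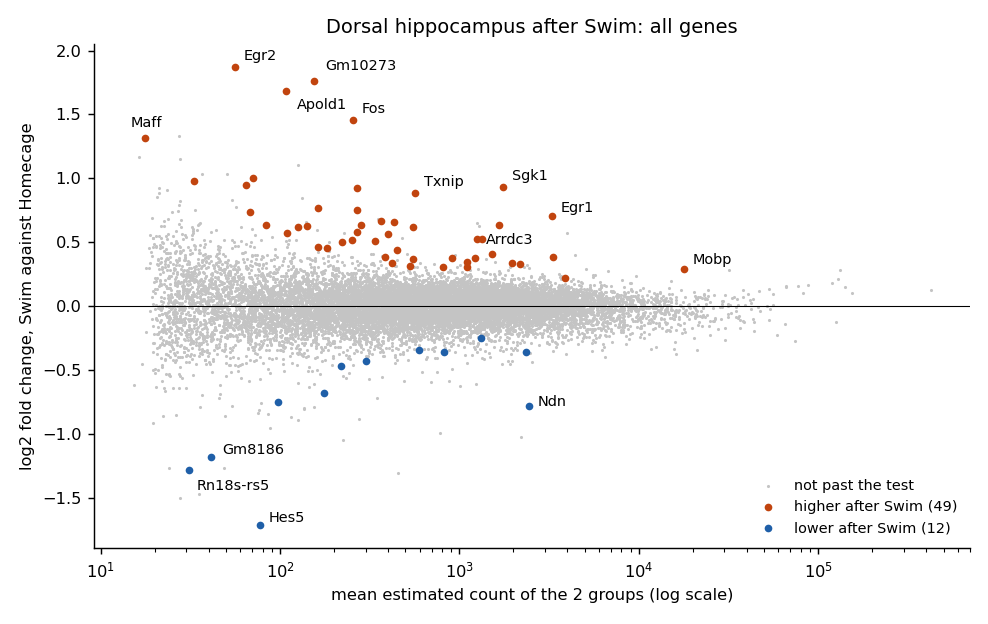
Log2 fold change of Swim against Homecage (vertical axis) over the mean estimated count of both groups (horizontal axis, log scale) for all 13645 genes. The 49 genes higher after Swim are orange, the 12 lower are blue and the rest grey, with Egr2 highest at 1.87 and Hes5 lowest at -1.71.

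The tissue label was checked against markers in the Homecage mice. Between ventral and dorsal Homecage, the authors' deposited table calls 18.4% of all genes higher in ventral and 20.0% higher in dorsal. Of 13 markers of ventral hippocampus, 12 were called higher in ventral in the authors' deposited table, and of 9 markers of dorsal hippocampus, 7 were called higher in dorsal. Markers of dentate granule cells, which make up more of the dorsal tissue, were called higher there in 13 of 14 cases. After Swim, none of the 9 dorsal markers passed the authors' test (3 were lower at an unadjusted p under 0.05), beside 0.447% of all genes. Their summed level was 1179 CPM in Homecage and 1121 CPM in Swim.

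A trend with base composition runs through the Swim table and touches the results that follow. Across genes, the log2 fold change fell with the GC content of the gene's transcripts (Spearman rho -0.58 over genes, which are not independent replicates and share the same libraries). The median log2 fold change was 0.11 in the lowest of 10 equal groups of genes by GC content and -0.17 in the highest. In ventral hippocampus after Swim the trend had the opposite sign (rho 0.68), and in whole hippocampus it was weaker and positive (rho 0.29). The trend is not particular to Swim. It was also negative in dorsal hippocampus after Restraint (rho -0.46) and Handling (rho -0.34), from tables that share the dorsal Homecage libraries. In ventral hippocampus it was also positive after Handling (rho 0.44) and Restraint (rho 0.38). After the trend was subtracted from each table, 57 genes were called in dorsal Swim, of which 40 were among the 61 (35 higher, 5 lower), 21 of the 61 were no longer called and 17 others were. Calls that did not outlast this subtraction are named as such below, and the part of base composition in them was not tested further.

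**Figure D2:**
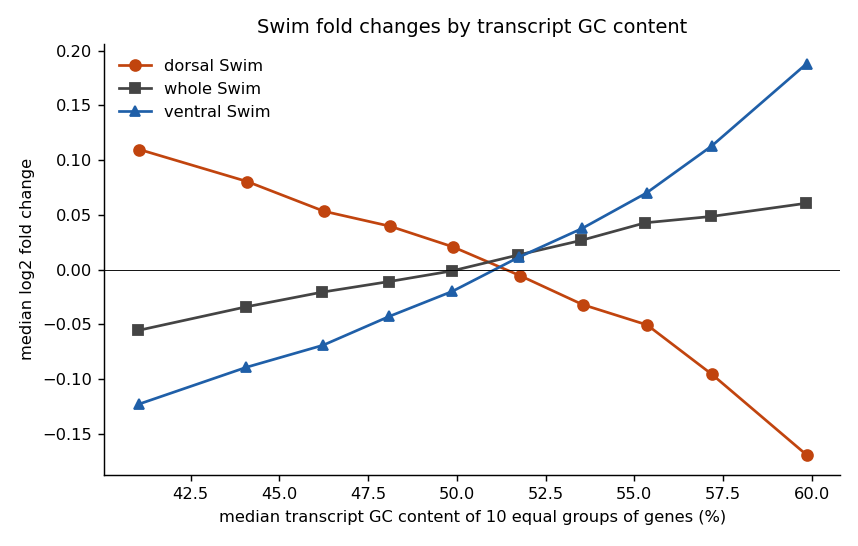
Median log2 fold change of Swim against Homecage (vertical axis) in 10 equal groups of genes by transcript GC content (horizontal axis, median of the group in percent), for dorsal, whole and ventral hippocampus. The dorsal line falls from 0.11 to -0.17, while the ventral line rises from -0.12 to 0.19.

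Corticosteroid-responsive genes held the strongest call. Sgk1, the serum and glucocorticoid-regulated kinase, had group means of 49.8 CPM in Homecage and 95.7 CPM in Swim, and it rose by 0.93 ± 0.07 (SE) on the log2 scale in the authors' deposited table (adjusted p 1.1e-37). Txnip, which binds thioredoxin and limits glucose uptake, went from 16.5 to 30.7 CPM, and the authors' deposited table gives 0.88 ± 0.09 (adjusted p 8.5e-19). Txnip belongs to the alpha-arrestins, adaptors that draw membrane proteins to ubiquitin ligases, and its relatives Arrdc3 (0.53 ± 0.07, from 43.0 to 62.2 CPM) and Arrdc2 (0.52 ± 0.14) rose with it in the authors' deposited table. The promoters of Sgk1 and Txnip are shown because both hold the palindromic glucocorticoid response element GNACANNNTGTNC within 250 bases before a RefSeq start (mouse assembly GRCm38.p6). The match is in capitals, on both strands alike since the motif is its own reverse complement, and the first capitals in Sgk1 are an E-box, CACGTG. The Sgk1 stretch is chr10:21993640-21993724 (plus strand, bases -250 to -166 from the start), and the Txnip stretch is chr3:96557775-96557807 (plus strand, bases -182 to -150).
Sgk1: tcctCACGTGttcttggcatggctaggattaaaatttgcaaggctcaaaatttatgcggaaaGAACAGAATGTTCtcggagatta
Txnip: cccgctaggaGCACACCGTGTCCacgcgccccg
RefSeq promoters (250 bases before to 50 after a start) could be matched for 10785 of the 13645 genes, of which 43 (0.399%) hold this palindrome and 1249 (11.6%) the E-box in at least 1 promoter, both strands searched. Promoters were at hand for 47 of the 61 called genes, too few to set the calls' share beside that of all genes. Sgk1 and Txnip were the only 2 of 39 rises with a promoter to hold the palindrome, and none of 8 falls did. A match is a description of letters, not evidence of binding.

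Of 30 measured glucocorticoid receptor targets, 9 rose, beside 0.359% of all genes, and none fell. Their median log2 fold change was 0.21, beside 0.01 for all genes. Beside Sgk1, Txnip, Arrdc3 and Arrdc2, these were Tsc22d3, Nfkbia, Cdkn1a, Dusp1 and Errfi1. Tsc22d3, the leucine zipper GILZ, rose by 0.53 ± 0.09 (45.6 to 66.7 CPM) and Nfkbia, which holds NF-kB in the cytoplasm, by 0.57 ± 0.13 (13.4 to 20.1 CPM) in the authors' deposited table. Cdkn1a, an inhibitor of cyclin-dependent kinases, rose by 0.62 ± 0.13, Dusp1, a MAP kinase phosphatase, by 0.58 ± 0.12, and Errfi1, a brake on the EGF receptor, by 0.35 ± 0.08, all in the authors' deposited table. These 9 calls were kept after the GC trend was subtracted. The list is broad: several of its members, Dusp1, Cdkn1a and Errfi1 among them, also answer to neuronal firing and stand in the list of activity-regulated effectors.

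Other well-known hormone targets did not pass the test. Fkbp5, a chaperone that restrains the glucocorticoid receptor, had nearly equal group means, 76.6 and 77.7 CPM, and a log2 fold change of 0.01 ± 0.07 in the authors' deposited table (adjusted p 0.95). Per1, a period gene of the circadian clock that glucocorticoids can induce, stood at 88.5 and 112 CPM with 0.32 ± 0.11 in the authors' deposited table (adjusted p 0.21), and it was called with the GC trend removed (0.47, adjusted p 0.0061). The receptors themselves gave 0.12 ± 0.08 for Nr3c1, the glucocorticoid receptor, and -0.03 ± 0.07 for Nr3c2, the mineralocorticoid receptor, in the authors' deposited table. None of 17 measured corticosteroid receptors and regulators was called by the authors' test, beside 0.447% of all genes. In this list, 1 gene was lower at an unadjusted p under 0.05. Of 21 circadian clock genes, 1 rose: Bhlhe40, a repressor of clock output that is also an early gene, by 0.38 ± 0.08 (121 to 158 CPM) in the authors' deposited table.

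Immediate early transcription factors formed the second group. Of 28 measured, 9 rose, beside 0.359% of all genes, and none fell, with a median log2 fold change of 0.29. Fos, the AP-1 subunit used as a marker of neuronal activation, went from 5.66 to 15.5 CPM, a rise of 1.45 ± 0.14 in the authors' deposited table (adjusted p 1.2e-20). Its relative Fosb rose by 0.77 ± 0.11 (5.00 to 8.53 CPM) in the authors' deposited table. The zinc finger factors Egr1 and Egr2 rose by 0.71 ± 0.10 (104 to 170 CPM) and 1.87 ± 0.26 (1.00 to 3.66 CPM) in the authors' deposited table. Among orphan nuclear receptors, Nr4a1 rose by 0.63 ± 0.10 (54.7 to 85.1 CPM) and Nr4a2 by 0.38 ± 0.08 (44.4 to 57.6 CPM) in the authors' deposited table. Npas4, a factor specific to neurons that is driven by calcium entry, rose by 0.51 ± 0.12 (11.7 to 16.7 CPM), and Maff, a small Maf factor near the low end of the table, by 1.31 ± 0.30 (0.42 to 1.06 CPM), both in the authors' deposited table. These 8 and Bhlhe40, the ninth, were kept after the GC trend was subtracted.

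Members of the same families stayed outside the test, and some had fold changes below 0. Arc, a synaptic early gene counted among the effectors, went from 134 to 197 CPM with a log2 fold change of 0.57 ± 0.16 in the authors' deposited table (adjusted p 0.081), and it was called with the GC trend removed (0.71, adjusted p 0.0061). Junb (0.06 ± 0.22) and Egr4 (-0.05 ± 0.23) had a log2 fold change near 0 in the authors' deposited table. The authors' deposited table gives -0.59 ± 0.23 for Jund (adjusted p 0.32), -0.46 ± 0.13 for Jun (adjusted p 0.057) and -0.22 ± 0.11 for Egr3 (adjusted p 0.43). Jun, Egr3, Klf4 and Fosl2 were chosen after their values were seen. Klf4 (0.59, adjusted p 0.064) and Fosl2 (0.27, adjusted p 0.085) in the authors' deposited table were called once the GC trend was subtracted, which with Per1 brings the count in this list from 9 to 12.

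Activity-regulated effectors, the enzymes and signal regulators made in the same wave, rose in 9 of 33 cases, beside 0.359% of all genes. None fell, and the median was 0.15. Beside Dusp1, Cdkn1a and Errfi1, the rises were Sik1, Dusp5, Arl4d, Trib1, Trib2 and Tiparp. Sik1, a kinase that shuts off CREB coactivators, rose by 0.92 ± 0.16 (7.71 to 14.7 CPM), and Dusp5, a phosphatase for nuclear ERK, by 0.62 ± 0.11 (18.1 to 27.8 CPM) in the authors' deposited table. Arl4d, a small GTPase, rose by 0.75 ± 0.12, the pseudokinases Trib1 and Trib2 by 0.64 ± 0.11 and 0.30 ± 0.07, and the ADP-ribosyltransferase Tiparp by 0.44 ± 0.09, again in the authors' deposited table. Tiparp was not called with the GC trend removed (0.33, adjusted p 0.076). Dio2, which turns thyroxine into the active hormone T3 and is made mainly by glia, rose by 0.41 ± 0.08 (55.1 to 72.9 CPM) in the authors' deposited table (adjusted p 0.00013), the only call among 14 measured genes of the thyroid hormone axis. The Dio2 promoter is shown for a full cAMP response element, TGACGTCA, in capitals, the site that CREB binds, at chr12:90739116-90739143 (minus strand, bases -105 to -78, GRCm38.p6).
Dio2: tctttctcaaTGACGTCAagatctttag
Both strands searched, 377 of the 10785 genes with a promoter (3.50%) hold this element.

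Among 16 measured early genes of endothelial and shear response, 3 rose and 1 fell, with a median log2 fold change of 0.15. Over all genes, 0.359% rose and 0.0879% fell by the same test. Apold1, an early gene of endothelial cells, had the second lowest p of the table: its group means were 2.12 and 6.83 CPM, and the authors' deposited table puts its rise at 1.69 ± 0.16 (adjusted p 3.1e-22). Cyr61, a matricellular protein induced by shear and growth factors, rose by 1.00 ± 0.21 (1.94 to 3.97 CPM), and Adamts1, a protease of the same early response, by 0.31 ± 0.08, in the authors' deposited table. Sox18, a factor of endothelial identity, fell by 0.75 on the log2 scale in the authors' deposited table (5.14 to 3.09 CPM). Outside that list, 5 further rises have mixed sources and were set here after their values were seen, with no theme tested. The authors' deposited table calls Thbs1, an adhesive glycoprotein (0.95 ± 0.19), F3, the tissue factor that starts coagulation and is made by astrocytes in brain (0.31 ± 0.08), Gimap6, a GTPase of lymphocytes and endothelium (0.73 ± 0.17), Fzd4, a Wnt and norrin receptor (0.46 ± 0.12), and Filip1l (0.63 ± 0.16). Adamts1, Sox18, F3, Fzd4 and Filip1l were not called after the GC trend was subtracted. None of 16 markers of endothelial cells was called by the authors' test (3 higher at an unadjusted p under 0.05), beside 0.447% of all genes. No call in a list this short is not read as a result about these cells. After the GC trend was subtracted, 1 marker was called (Slc2a1, a glucose transporter). The summed level of the markers was 412 CPM in Homecage and 446 CPM in Swim.

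The falls were led by Hes5, a Notch target and repressor of neuronal differentiation that is made by astrocytes and neural progenitors. Its group mean went from 5.02 CPM in Homecage to 1.51 CPM in Swim, a log2 fold change of -1.71 ± 0.21 in the authors' deposited table (adjusted p 7.4e-13). It was the only call among 28 measured members of the Notch pathway, of which 6 had a fold change above 0 and the median was -0.09 (-0.02 after the GC trend was subtracted). The Hes5 promoter is shown because Notch acts through the factor RBPJ, whose site GTGGGAA stands at 2 places, the first on the opposite strand. The last capitals, at bases -33 to -24 from the start, match the letters of a CArG box, the core of the serum response element. Whether they serve as one was not tested. The stretch is chr4:154960687-154960909 (plus strand, bases -236 to -14, GRCm38.p6).
Hes5: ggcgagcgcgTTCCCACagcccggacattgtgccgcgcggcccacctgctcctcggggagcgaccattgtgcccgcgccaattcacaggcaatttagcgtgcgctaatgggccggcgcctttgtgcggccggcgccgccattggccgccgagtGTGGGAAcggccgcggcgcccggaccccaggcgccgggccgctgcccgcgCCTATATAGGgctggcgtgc
Of the 10785 genes, 815 (7.56%) hold the RBPJ site and 171 (1.59%) the CArG box in at least 1 promoter, both strands searched.

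Ndn, the imprinted gene for necdin, went from 130 to 75.9 CPM and fell by 0.78 on the log2 scale in the authors' deposited table (adjusted p 3.8e-06). Of 25 measured imprinted genes the other call was Nnat, neuronatin (-0.36 ± 0.09 in the authors' deposited table), while 17 of the 25 had a fold change above 0 (median 0.09). The remaining falls were small or of scarce transcripts. The authors' deposited table gives -0.25 ± 0.06 for Rap2b, a small GTPase, -0.36 ± 0.09 for Pakap, -0.68 ± 0.18 for the Wnt ligand Wnt9a, -0.35 ± 0.09 for Dvl2, which relays Wnt signals, -0.47 ± 0.12 for Fbxo46 and -0.43 ± 0.11 for Asphd1. The predicted gene Gm8186 (-1.18 ± 0.29) and the ribosomal RNA-like Rn18s-rs5 (-1.29 ± 0.31) in the authors' deposited table had means under 3 CPM and may share reads with near-identical copies, as may Gm10273 among the rises (1.77 ± 0.44). Rn18s-rs5, Fbxo46, Nnat, Asphd1, Wnt9a and Dvl2 were not called after the GC trend was subtracted, which leaves Hes5, Ndn, Gm8186, Pakap and Rap2b among these falls.

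A further 6 rises, grouped after their values were seen and not from a fixed list, were also genes with a higher level in ventral hippocampus. Slc17a6, the vesicular glutamate transporter VGLUT2 of thalamic and subicular neurons, went from 11.8 to 18.8 CPM, a rise of 0.66 ± 0.15 in the authors' deposited table (adjusted p 0.0037). Nts, the neuropeptide neurotensin, rose by 0.57 ± 0.15 (3.66 to 5.48 CPM), Rxfp1, a relaxin receptor, by 0.66 ± 0.16, and Cbln2, a synapse organiser, by 0.63 ± 0.16 (4.61 to 7.20 CPM) in the authors' deposited table. Etv1, an ETS factor, and Cntn4, an axonal adhesion molecule, rose by 0.33 ± 0.09 and 0.34 ± 0.09 in the authors' deposited table. In Homecage all 6 were called higher in ventral than in dorsal hippocampus in the authors' deposited table, as were 18.4% of all genes, and since they were grouped on this no count is read from it. The log2 differences were 1.25 for Slc17a6, 0.63 for Nts, 1.51 for Rxfp1, 1.40 for Cbln2, 0.86 for Etv1 and 0.92 for Cntn4, from a table that shares the dorsal Homecage libraries with the Swim table. Slc17a6 stood at 11.8, 18.8 and 29.0 CPM in dorsal Homecage, dorsal Swim and ventral Homecage. Nts, Rxfp1, Etv1 and Cntn4 were not called after the GC trend was subtracted, while Slc17a6 (0.61, adjusted p 0.011) and Cbln2 (0.59, adjusted p 0.044) were.

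The markers of neighbouring tissue that passed the test are genes named above. Over all genes, 0.359% were called higher. All 9 measured subiculum markers (of 10, with Teddm3 not in the table) had a fold change above 0, with a median of 0.27. Of these, 2 were called (Slc17a6 and Nts) and 6 were higher at an unadjusted p under 0.05, beside 11.2% of all genes in either direction. Their median GC content was 43.8%, and the second lowest of the 10 GC groups of all genes had a median of 0.08. Both this list's median and its count of calls moved when the GC trend was subtracted, and Nts was no longer called. Their summed level was 292 CPM in Homecage and 330 CPM in Swim, beside 300 CPM after Handling and 314 CPM after Restraint. For thalamus, 1 of 11 markers was called (Slc17a6), the median was 0.06, and the sums were 369 and 392 CPM, with Gbx2 not in the table. For neocortex layers, 2 of 15 were called (Etv1 and Nr4a2), the median was 0.08, and the sums were 792 and 835 CPM. The 13 markers of ventral hippocampus gave 1 call, Etv1, a median of 0.04, and sums of 309 and 329 CPM. The part of dissection in these rises was not tested.

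Among 29 measured markers of myelin and oligodendrocytes, 2 rose, beside 0.359% of all genes, and none fell. Mobp, a structural protein of central myelin, went from 672 to 824 CPM, a rise of 0.29 ± 0.07 in the authors' deposited table (adjusted p 0.012), and Tspan2, a tetraspanin of oligodendrocytes, rose by 0.33 ± 0.08 (80.5 to 101 CPM). Of the 29 markers, 23 had a fold change above 0, 11 were higher and none lower at an unadjusted p under 0.05, and the median was 0.14 (0.17 after the GC trend was subtracted). Values of 0.29 for Mal (adjusted p 0.067) and 0.37 for Ermn (adjusted p 0.075) in the authors' deposited table fell short of the threshold. The summed level was 6099 CPM in Homecage and 7025 CPM in Swim, 7155 CPM after Restraint and 6161 CPM after Handling, and in Homecage 28 of the 29 markers were called higher in dorsal than in ventral hippocampus, beside 20.0% of all genes. The part of dissection in this list was not tested. Tspan2 was not called after the GC trend was subtracted, while Mobp was (0.32, adjusted p 0.0022).

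The other 8 rises belong to none of the groups above. Il33, an alarmin of oligodendrocytes and astrocytes (0.38 ± 0.09, 33.0 to 43.0 CPM), Selenop, which carries selenium (0.22 ± 0.06, 150 to 175 CPM), and Cdh19, a cadherin of glia (0.50 ± 0.12), rose in the authors' deposited table and were not called after the GC trend was subtracted. Pmaip1, the pro-apoptotic protein Noxa (0.98 ± 0.23, 0.93 to 1.84 CPM), Cpm, a membrane carboxypeptidase (0.38 ± 0.09), and Chdh, choline dehydrogenase (0.46 ± 0.12), rose in the authors' deposited table and were called after it too. Kat2b, a histone acetyltransferase (0.37 ± 0.09 in the authors' deposited table), was not, and Gm10273 was.

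Just outside the threshold stood Slc38a2, Zfp119b, Zfp189, Helz2 and Pdp1. The authors' deposited table gives them log2 fold changes of 0.24, 0.60, 0.33, 0.39 and 0.27 with adjusted p from 0.050 to 0.056, and just inside it stood Chdh, Fzd4, Dvl2 and Cntn4, each with an adjusted p of 0.048.

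Lists for temperature, oxygen and metabolism gave no call by the authors' test. The share of all genes called was 0.447%, so no call in lists this short is not read as a result about them. At an unadjusted p under 0.05 the share of all genes, in either direction, was 11.2%. None of 26 heat shock genes and chaperones passed the authors' test (7 higher and 1 lower at an unadjusted p under 0.05, median 0.11, and 0.04 after the GC trend was subtracted). None of 10 cold-inducible genes did (1 lower at an unadjusted p under 0.05, median 0.02, and -0.0075 after the subtraction). None of 26 genes of glycolysis and hypoxia response was called (1 higher and 2 lower at an unadjusted p under 0.05, median -0.03), while 1 was after the GC trend was subtracted, the glucose transporter Slc2a1 (median -0.01), and none of 16 genes of DNA methylation and Gadd45 was (none at an unadjusted p under 0.05). None of 24 postsynaptic scaffolds was called, yet 10 were lower and 2 higher at an unadjusted p under 0.05 (median -0.07, and -0.03 after the GC trend was subtracted). All 13 genes of the mitochondrial genome had a fold change above 0 (median 0.16) with none called and none at an unadjusted p under 0.05, and their median was 0.01 after the GC trend was subtracted. Ribosomal protein genes (78, median -0.06) and the nuclear respiratory chain (75, median -0.08) gave no call, with 11 and 14 lower at an unadjusted p under 0.05.

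Of cell types that the dissection could carry along, choroid plexus, the tissue that makes cerebrospinal fluid, gave no call among 10 measured of 18 markers (3 higher at an unadjusted p under 0.05, median 0.39). Its summed level was 244 CPM in Homecage, 325 CPM in Swim and 338 CPM after Handling, but 2164 CPM after Restraint. For Handling and Restraint 11 of the markers were measured, so the sums may not cover the same genes. Enpp2, which oligodendrocytes also make, held 159 and 210 CPM of the sums in Homecage and Swim. Ttr, transthyretin, its defining transcript, had a log2 fold change of 0.65 ± 0.44 after Swim (adjusted p 0.57) and 4.94 after Restraint in the authors' deposited tables. Blood cell markers were below 0 in 5 of 5 measured cases (5 of 10 were not in the table), with none called, 2 lower at an unadjusted p under 0.05, a median of -0.43, and sums of 233 and 167 CPM. Microglia markers gave no call among 16 (2 lower at an unadjusted p under 0.05) and a median of -0.11. With 0.447% of all genes called, no call in these short lists is not read as a result about them.

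**Figure D3:**
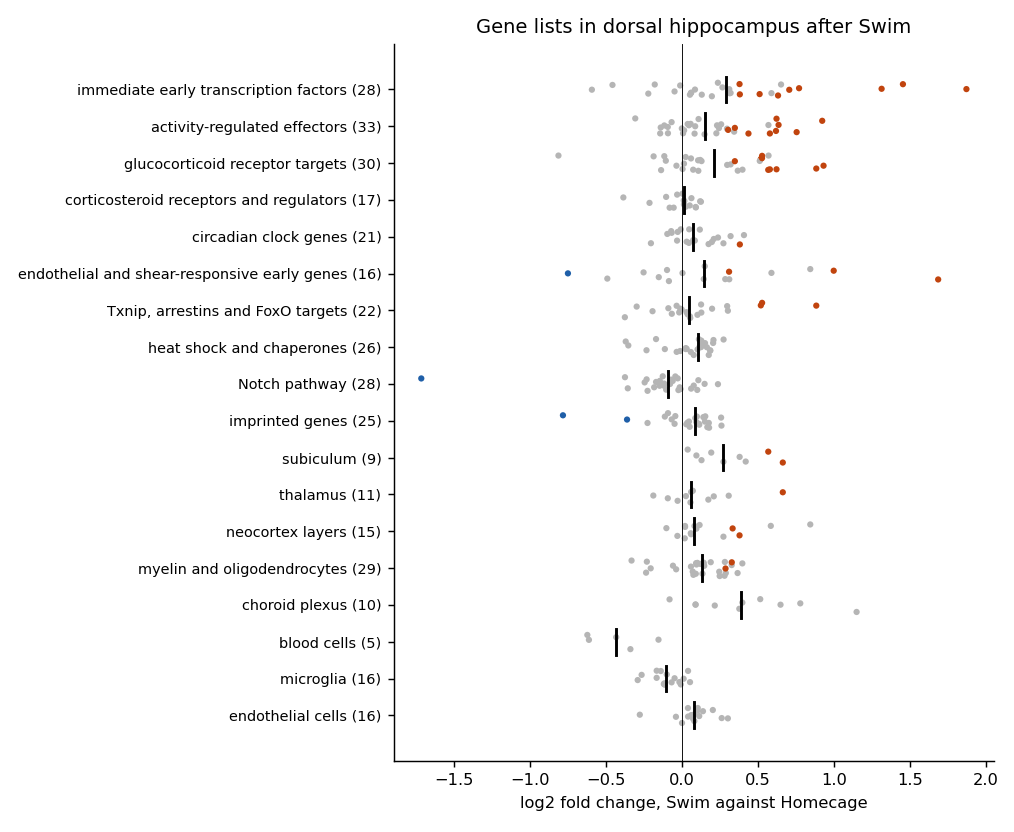
Log2 fold change of Swim against Homecage (horizontal axis) for each measured member of 18 gene lists (rows, number of members in brackets), with the list's median as a black bar. Members past the test are orange when higher and blue when lower, and the early gene and glucocorticoid target rows hold 9 orange points each.

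The 3 treatments were set side by side in dorsal hippocampus. They share the dorsal Homecage libraries, so their fold changes are not independent, and the SE of a difference between treatments is an upper bound. Sgk1 stood at 49.8 CPM in Homecage, 64.5 after Handling, 94.8 after Restraint and 95.7 after Swim. Txnip stood at 16.5, 19.4, 24.7 and 30.7 CPM in the same order, and Apold1 at 2.12, 3.22, 10.6 and 6.83 CPM. In the test of the difference itself, 3 of 13573 genes (0.0221%) separated Swim from Handling, all higher after Swim: Sgk1 by 0.58 ± 0.10 (adjusted p 0.00036), Txnip by 0.67 ± 0.14 (adjusted p 0.010) and Apold1 by 1.11 ± 0.24 (adjusted p 0.027). The same 3 passed after the GC trend was subtracted from both tables.

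Fos, Egr2, Fosb and Arc had larger fold changes after Handling than after Swim, but none of these differences passed. Fos stood at 5.66 CPM in Homecage, 18.4 after Handling, 14.4 after Restraint and 15.5 after Swim. The log2 fold changes of Handling, Restraint and Swim in the authors' deposited tables were 2.96, 2.08 and 1.87 for Egr2, 1.21, 1.06 and 0.77 for Fosb, and 1.14, 0.57 and 0.57 for Arc. The difference of Swim minus Handling was -1.08 ± 0.36 for Egr2 (unadjusted p 0.0026) and -0.43 ± 0.18 for Fosb (unadjusted p 0.016), each with an adjusted p of 0.9998. Slc17a6 gave 0.00, 0.15 and 0.66 and Mobp 0.08, 0.14 and 0.29 in these authors' deposited tables. Hes5 gave -0.50, -1.30 and -1.71 and Ndn -0.73, -0.43 and -0.78 in them. No gene of 13592 separated Swim from Restraint in the same normal test with Benjamini-Hochberg adjustment (0.0%). At an unadjusted p under 0.05, 73 genes (0.54%) did, and 148 (1.09%) separated Swim from Handling. With the SE an upper bound, this test calls too few genes, so it cannot show that Swim and Restraint had the same effect.

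**Figure D4:**
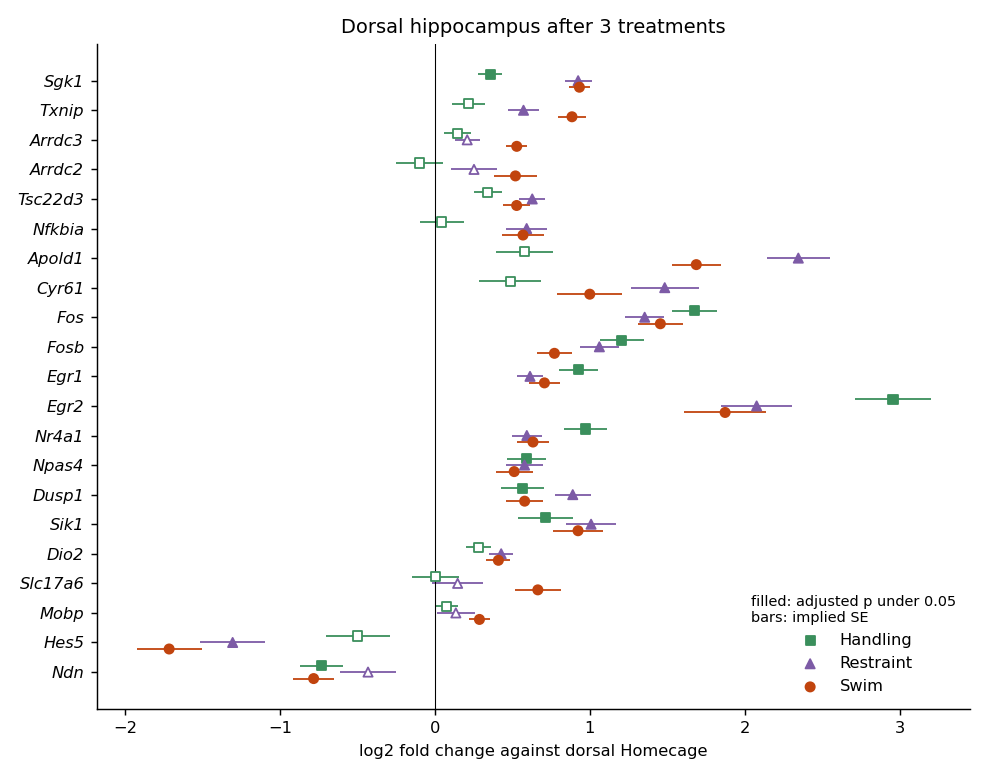
Log2 fold change against dorsal Homecage (horizontal axis) for 21 genes (rows) after Handling (green squares), Restraint (purple triangles) and Swim (orange circles), with bars for the implied SE. Filled marks have an adjusted p under 0.05, and the orange circle of Sgk1 at 0.93 lies beyond the green square.

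Whole hippocampus after Swim, from libraries that share none with the dorsal ones, repeated the direction of most rises. Of the 49 rises, 45 had a fold change above 0 there, where 51.4% of all genes did, and 23 were called higher, beside 0.336% of all genes. Those 23 are 46.9% of the dorsal rises and 50% of the 46 rises in whole hippocampus. Of the 12 falls, 11 were measured there, 7 had a fold change below 0 and 1 was called lower, Hes5, beside 0.0585% of all genes. No gene of 13530 passed the normal test of the difference between dorsal and whole hippocampus with Benjamini-Hochberg adjustment (0.0%). At an unadjusted p under 0.05, 1366 genes (10.1%) did.

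In ventral hippocampus, 35 of the 49 rises had a fold change above 0 and 28 were called higher, beside 4.65% of all genes. Those 28 are 57.1% of the dorsal rises and 4.38% of the 640 ventral rises. Slc17a6, Rxfp1 and Cntn4 were called in the opposite direction there. Of the 12 falls, 7 had the same direction and 3 were called lower (Hes5, Ndn and Wnt9a), beside 2.29% of all genes. In all, 24 dorsal calls were also calls in both whole and ventral hippocampus, 23 of them rises. Sgk1, Fos, Txnip, Apold1, Egr1 and Dio2 were among these rises. Another 27 (18 rises and 9 falls) were calls in neither, with Rn18s-rs5 among them not measured in whole hippocampus. Over all genes, 54 of 13686 were called in whole and 955 of 13758 in ventral hippocampus. Most genes were thus calls in neither, and the 27 are not read as particular to dorsal hippocampus.

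The response differed between dorsal and ventral hippocampus in 1383 of 13533 genes (10.2%), 445 with the higher value in dorsal and 938 in ventral. That count follows the trend with GC content, with a Spearman rho of -0.74 between the difference and GC content over genes. After the trend was subtracted from both tables, 72 genes differed, 56 higher in dorsal and 16 in ventral, 40 of them among the 1383. The gene with the lowest p was Slc17a6, which rose in dorsal (0.66) and fell in ventral hippocampus (-0.47) in the authors' deposited tables, a difference of 1.14 ± 0.18 (adjusted p 8.0e-06, and 6.2e-05 after the subtraction). Its level went from 29.0 to 20.8 CPM in ventral hippocampus. Rxfp1 gave a difference of 1.19 ± 0.23 and Cbln2 of 0.85 ± 0.18, and both passed after the subtraction too (adjusted p 0.011 and 0.0082), as did Trib2 and Gm10273 among the calls.

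Some early genes had lower fold changes in dorsal than in ventral hippocampus in this test. Fos differed by -0.60 ± 0.19 (adjusted p 0.024), Fosb by -0.65 ± 0.15 (adjusted p 0.0025), Nr4a1 by -0.49 ± 0.13 (adjusted p 0.0085), Junb by -1.40 ± 0.29 (adjusted p 0.0011) and Egr4 by -1.55 ± 0.29 (adjusted p 0.00058). Junb rose by 1.46 in ventral hippocampus in the authors' deposited table, against 0.06 in dorsal, and Egr4 went from 3.59 to 10.2 CPM there, against a log2 fold change of -0.05 in dorsal. None of these 5 differences passed after the GC trend was subtracted, with adjusted p from 0.093 to 0.45. Egr3, at -0.22 in dorsal and 0.52 in ventral hippocampus in the authors' deposited tables, did (adjusted p 0.031). The corticosteroid-responsive Sgk1 differed by 0.03 ± 0.10 (adjusted p 0.88) and Txnip by 0.15, and Apold1 differed by -0.09, and no difference between the parts was detectable for them at these errors.

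**Figure D5:**
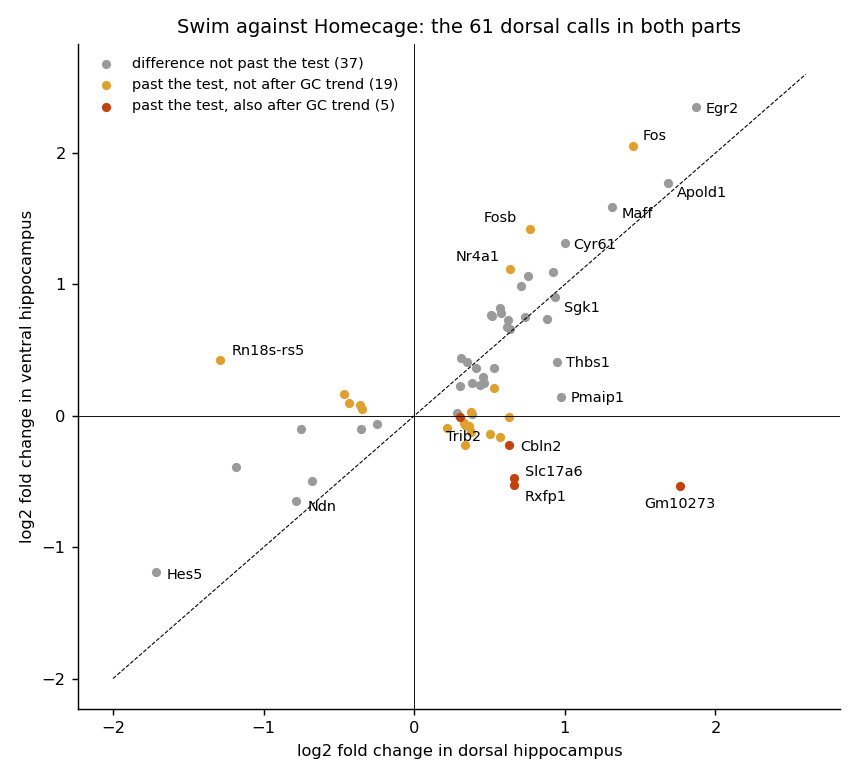
Log2 fold change of Swim against Homecage in dorsal (horizontal axis) and ventral hippocampus (vertical axis) for the 61 dorsal calls, with the line of equal change dashed. Grey points did not pass the test of the difference (37), and yellow points passed it but not with the GC trend removed (19). The 5 orange points passed either way, with Slc17a6 and Rxfp1 below 0 in ventral hippocampus.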

How the data were processed

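The authors deposited 1 table per pair of groups. Per the file headers, each holds 2 mean estimated counts per gene (1 per group), the fold change as a ratio, its log2 value, a p-value and an adjusted p. Bowtie 0.12.2 and mm8 stand without a role in the submitters' processing notes. Which program counted the reads, and which test gave the p-values, is not given in the sources used here. Group means sum to 23.4M and 24.2M estimated counts over the genes kept here, which need not be the full depth of a library. Values per library were not analysed here, so the planned edgeR counts test was replaced by the authors' adjusted p at 0.05. Repeated entries (144) were dropped.

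An SE was derived as the log2 fold change over the normal quantile of p. Differences between tables were divided by the root of the summed squared SEs, compared with a normal distribution, 2-sided, and adjusted by Benjamini-Hochberg over all genes of both tables. The method was tested on simulated data. The GC and length trends (lowess, fraction 0.3, statsmodels 0.14.6, Python 3.11.15) used GENCODE M21 transcripts on GRCm38, at hand for 99.8% of genes. Other alternatives were thresholds of 0.01 and 0.1, total-count scaling, centring on the median and a summed mean of at least 100.

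The comparison, the 51 gene lists and the names were chosen with earlier results of these data known. The rule names every called gene, the 4 members of each list with the lowest p, fixed genes (Arc, Egr1, Fkbp5, Fos, Fosb, Hes5, Mobp, Ndn, Npas4, Nr3c1, Nr3c2, Nr4a1, Per1, Sgk1, Slc17a6, Ttr, Txnip), the 5 lowest p of each difference and the 5 genes just outside the threshold. Lists are given by counts and medians, with no test of the list. As 0.447% of all genes were called, a short list without a call is near that share.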

Additional observations from a re-analysis of the deposited data

Results flagged for a closer look

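The Swim response of 35 named genes differed between dorsal and ventral hippocampus by the test of the difference, given here as the dorsal minus the ventral log2 fold change. Of these, 7 also passed after the GC trend was subtracted from both tables: Slc17a6 (1.14), Rxfp1 (1.19), Cbln2 (0.85), Trib2 (0.31) and the predicted gene Gm10273 (2.30) with the higher value in dorsal, and Egr3 (-0.74) and Ccno (-1.42) with the higher value in ventral hippocampus. Ccno, a cyclin-like gene of ciliated cells, was at -0.69 in dorsal and 0.74 in ventral hippocampus in the authors' deposited tables.

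Differences above 0 that did not pass after the subtraction were those of Cntn4 (0.56), Il33 (0.50), Pdp1 (0.41), Etv1 (0.40), Ermn (0.48), Selenop (0.31), Cdh19 (0.64), Tspan2 (0.38), Kat2b (0.45), Arrdc3 (0.32), Nts (0.73), Filip1l (0.64), Mal (0.33) and Nr4a2 (0.35). Differences below 0 that did not pass after it were those of Plch2 (-0.58), Egr4 (-1.55), Junb (-1.40), Fosb (-0.65), Jund (-1.21), Jun (-0.61), Fbxo46 (-0.63), Nnat (-0.45), Nr4a1 (-0.49), Asphd1 (-0.53), Rn18s-rs5 (-1.71), Dvl2 (-0.40), Per1 (-0.40) and Fos (-0.60). The part of base composition in them was not tested beyond that subtraction.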

How the results depend on the processing

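The count of 61 calls was 34 at a threshold of 0.01 (32 higher, 2 lower) and 102 at 0.1. It lay between 55 and 66 under the other scalings, the GC and length trends, the summed mean of at least 100 and repeated entries kept. With the GC trend subtracted, 21 called genes dropped out and Arc, Per1, Helz2, Klf4, Fosl2 and Slc2a1 came in among the named genes. Centring on the median of all genes removed Adamts1, Selenop, Etv1, Chdh, Fzd4 and Cntn4, and the length trend removed Nnat, Asphd1, Adamts1, Etv1, Chdh, Fzd4, Dvl2 and Cntn4 and added Jun. Total-count scaling removed no call and added Slc38a2, Zfp119b, Zfp189, Helz2 and Pdp1, and the summed mean of at least 100 left out the called genes below it and added Slc38a2. Of the 51 lists, 28 medians moved by more than the median SE of the members over the root of their number with the GC trend subtracted and 11 counts of calls moved by over 1.5 times, each by 1 gene. No called gene changed sign under any of these. The difference between dorsal and ventral hippocampus fell from 1383 genes to 72 with the GC trend subtracted, and was 422 at 0.01 and 2279 at 0.1. The difference between dorsal and whole hippocampus went from 0 to 1 gene with the GC trend subtracted. The other shared and difference counts stayed within 1.5 times of the reported ones. The cause of these changes was not tested. No paired analysis was possible because the deposited columns used here are group means that carry no replicate number, and for the same reason leaving out libraries and DESeq2 were not run. Depth limits scarce genes: under a mean count of 50, called genes changed by at least 0.98 on the log2 scale.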

Other observations

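The unfolded protein response, which restores folding in the endoplasmic reticulum, gave no call among 20 measured genes by the authors' test, but 17 had a fold change above 0 and 5 were higher at an unadjusted p under 0.05. Its median was 0.08, and 0.07 after the GC trend was subtracted. The authors' deposited table gives 0.28 for Xbp1, its key transcription factor (adjusted p 0.084), and 0.27 for the chaperone Hspa5 (adjusted p 0.14). Receptors for GABA and glycine had fold changes above 0 in 13 of 16 cases with none called (3 higher at an unadjusted p under 0.05), and their median of 0.10 was 0.01 after the subtraction. Slc2a1, the glucose transporter of the blood-brain barrier and a member of the glycolysis and endothelial lists, was at 0.30 in the authors' deposited table (adjusted p 0.081) and was called after the subtraction (0.37, adjusted p 0.0094).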
